A study of Rattus norvegicus with 16 samples.

Results

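Chondroitin sulfate proteoglycans and the hyaluronan genes are described here by 9 genes: Vcan, Ncan, Bcan and Acan, Cspg4, Has1 and Has2, Hapln1 and Cd44. They were found on the array by gene name in the scanner files, which gave 17 of 30367 probes and 9 of 26207 genes. A probe was tested when it lay well above background, as marked by the scanner software, on at least 4 of the 16 arrays. By that filter 13 of the 17 probes and 8 of the 9 genes were tested, and Bcan was not. Across the array 20571 genes passed.

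Olfactory mucosa of male Fischer rats was cultured, and a flow sorter separated the cultured cells into populations, each sampled 4 times. TRKA-TGF cells were TRKA cells conditioned with TGF-alpha, a ligand of the epidermal growth factor receptor. TRKA cells, CD90 cells, named for the surface protein of the Thy1 gene, and p75 cells, named for the neurotrophin receptor of the Ngfr gene, were grown by one shared protocol. Only TRKA-TGF cells received the conditioning, and no unsorted culture was analysed here. The messenger RNA of every group was copied into cDNA, which PCR then amplified as a whole, and each Cy3-labelled sample had a single-colour Agilent array to itself. Whether samples with one replicate number share an animal or a culture is not stated, so p-values measure the spread between these samples.

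Chondroitin sulfate proteoglycans are core proteins that carry long sulfated sugar chains. The lecticans among them, versican, neurocan, brevican and aggrecan, bind hyaluronan through one end of the core protein, and link proteins hold that bond. Hyaluronan is made at the cell membrane by the Has synthases and is bound by the receptor CD44. In nerve tissue this matrix is best known for limiting the growth of axons, and in the olfactory system the ensheathing glia and the connective tissue around the olfactory nerve meet it.

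A level here is log2 of the background-subtracted signal minus the array's 75th percentile, so 0 is the 75th percentile. Levels of different probes were not compared with each other. A difference subtracts the population named second from the one named first, and its standard error (SE) is that of a limma fit to all 16 arrays. A gene was called when its Benjamini-Hochberg adjusted p over all tested genes was under 0.05. The TRKA-TGF arrays shared slide 2 with the CD90 arrays, and the TRKA arrays shared slide 1 with the p75 arrays. Only TRKA-TGF against CD90 and TRKA against p75 were thus comparisons on one slide. The remaining 4 crossed slides, so that the slide cannot be told apart from the population there, and on each slide the row of arrays cannot be told apart from it either.

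The TRKA arrays stood apart from the others: 51.4 to 57.5% of spots were well above background there, against 66.4 to 72.4% elsewhere, and the median SD per gene was 1.08 log2 units, against 0.54 to 0.68. The antigen genes separated CD90 and p75 cells: Thy1 averaged 3.44 in CD90 and −1.56 in p75 cells. Ngfr averaged −5.24 in CD90 cells, with 2 of 4 arrays well above background, against 3.16 in p75 cells. All 8 macrophage markers of a list (Ptprc, Cd68, Tyrobp, Cd53, Csf1r, C1qa, Cd14 and Itgam) were well above background on every TRKA-TGF and TRKA array. Their summed linear level, on a log2 scale, was 6.98 to 7.09 in TRKA-TGF and 8.20 to 8.59 in TRKA, against 2.76 to 3.86 in CD90 and 1.22 to 2.48 in p75 cells.

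The sequences below show where in the genes some of the probes described later lie, chosen among those whose letters hold at least 1 reading frame with no stop codon. They are printed in lower case, 5′ to 3′ on the transcript strand, with the position given in the array files on the rn4 build. No capitals are used, since no part of a probe was singled out. The Acan probe is 60 bases long but covers 569 bases of the genome, so it is split on the genome.
Vcan, chr2:19714573-19714632, minus strand: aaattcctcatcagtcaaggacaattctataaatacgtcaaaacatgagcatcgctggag
Ncan, chr16:19810549-19810608, plus strand: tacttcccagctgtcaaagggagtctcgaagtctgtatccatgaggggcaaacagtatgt
Acan, chr1:134846027-134846595, plus strand: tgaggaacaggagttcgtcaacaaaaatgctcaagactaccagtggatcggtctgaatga
Hapln1, chr2:19629918-19629977, plus strand: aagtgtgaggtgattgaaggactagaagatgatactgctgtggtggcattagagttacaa
Cd44 probe 2, chr3:88052458-88052517, minus strand: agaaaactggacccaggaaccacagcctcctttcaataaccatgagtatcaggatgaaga
Cd44 probe 3, chr3:88041645-88041704, minus strand: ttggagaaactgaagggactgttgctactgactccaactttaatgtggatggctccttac
Cd44 is shown with both probes because they gave different patterns, described below.

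The tested lecticans were each highest in a different population. Vcan was highest in TRKA cells but well above background in all populations. Ncan was well above background only in p75 cells, and Acan was high only in CD90 cells. Has2, the hyaluronan synthase, was high in CD90 cells as well, and Cspg4 was high in CD90 and p75 cells and low in both TRKA populations. Cd44 was detected in all populations. After conditioning with TGF-alpha, Vcan and Cspg4 were called lower, and no member was called higher. The Cspg4 call was near background and held in only 13 of 27 alternatives.

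**Figure D1:**
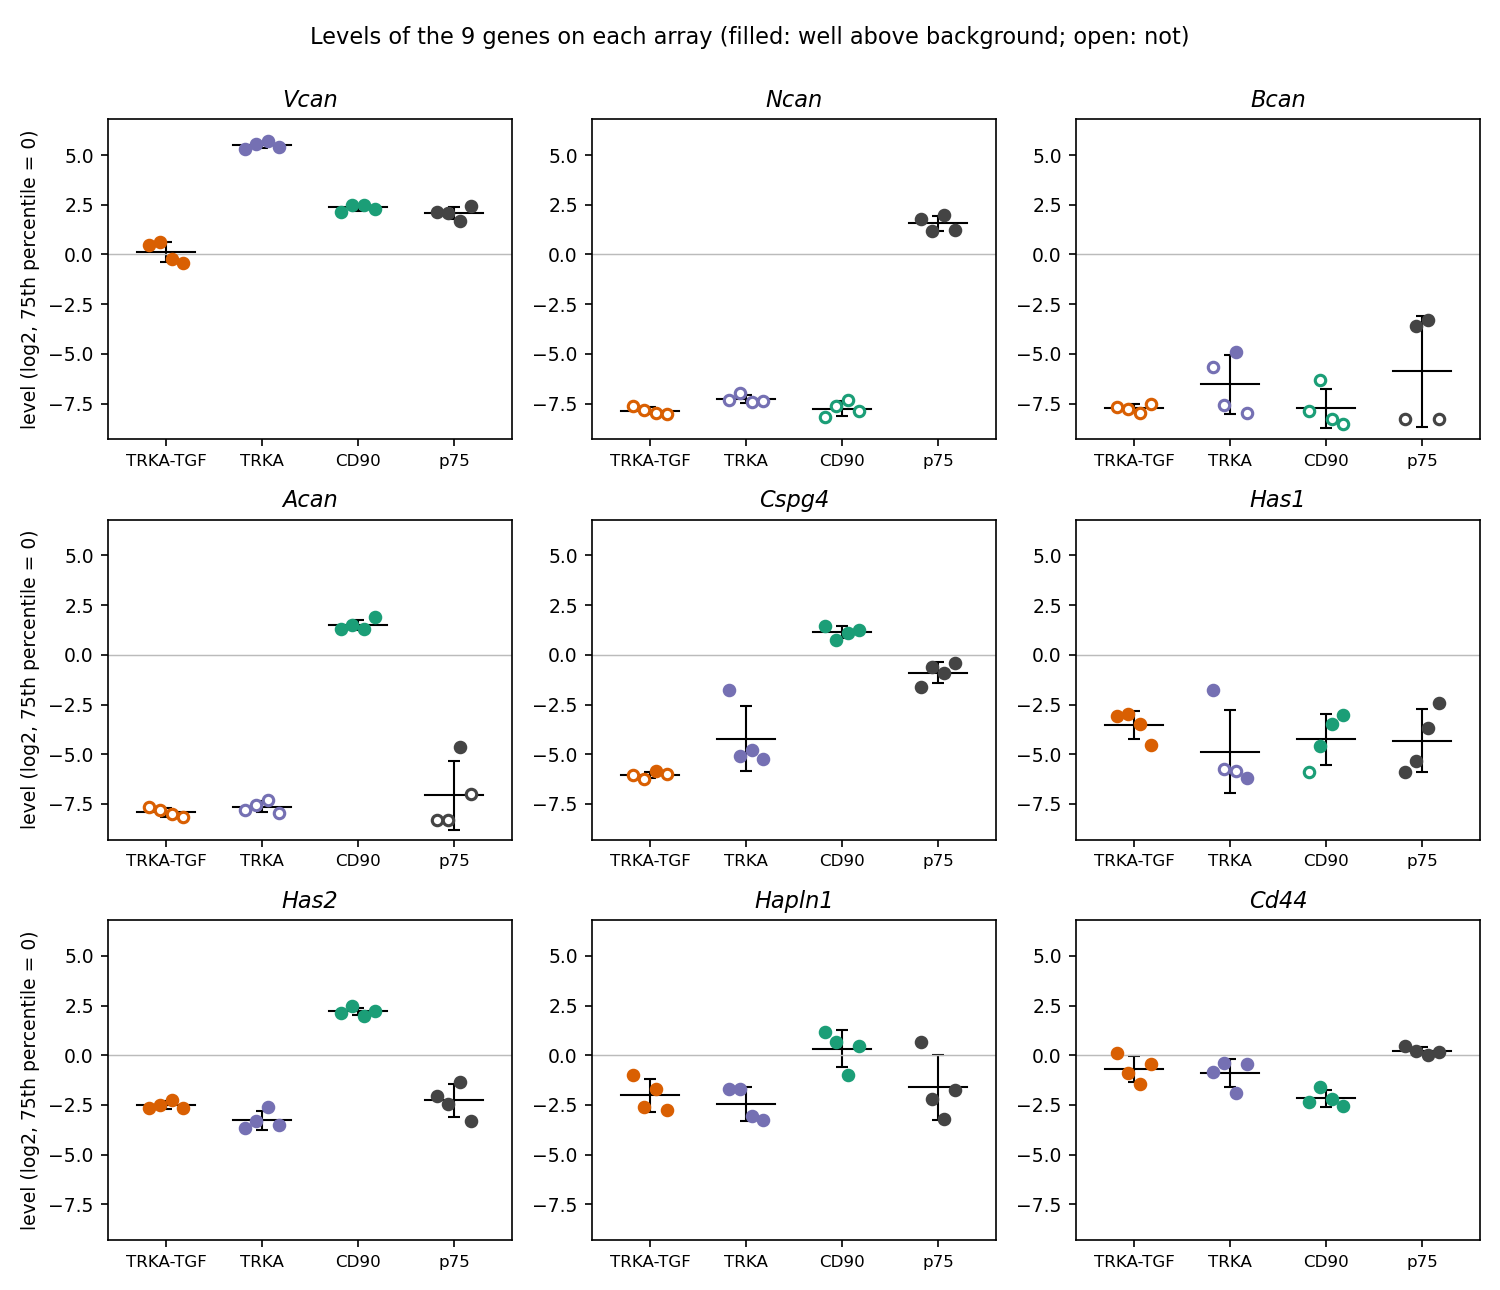
Each panel plots one gene's level on the 16 arrays, in log2 units relative to the array's 75th percentile, by population. Filled points are well above background and open points are not, and the lines give mean ± SD over 4 arrays. Vcan lies between 5.33 and 5.69 on all TRKA arrays, Ncan is filled in p75 cells only, and Acan is between 1.32 and 1.88 in CD90 cells and mostly open elsewhere. For genes with several tested probes the one with the highest mean is drawn. For Bcan, which was not tested, the probe detected on 3 arrays is drawn.

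Vcan encodes versican, a large lectican of loose connective tissue and developing nerve. Its level was 0.50, 0.62, −0.20 and −0.40 in the TRKA-TGF samples, against 5.33, 5.56, 5.69 and 5.43 in the TRKA samples. The CD90 samples had 2.14, 2.50, 2.50 and 2.31, and the p75 samples 2.12, 2.09, 1.67 and 2.42. All 4 TRKA samples were above every other sample, all 4 TRKA-TGF samples were below every other sample, and CD90 and p75 overlapped. Before scaling, the processed signal was 825 to 1639 in TRKA-TGF cells and 34436 to 36972 in TRKA cells.

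Vcan was 41.4-fold lower in TRKA-TGF than in TRKA cells (log2 difference −5.37, SE 0.27, adjusted p = 1.36e-08). It was 10.8-fold higher in TRKA than in p75 cells (log2 difference 3.43, SE 0.27, adjusted p = 4.16e-07), a comparison made within slide 1. It was 4.71-fold lower in TRKA-TGF than in CD90 cells (log2 difference −2.24, adjusted p = 5.07e-05), a comparison made within slide 2. The difference was 3.14 for TRKA against CD90 (adjusted p = 1.15e-06) and −1.95 for TRKA-TGF against p75 (adjusted p = 0.000157). CD90 and p75 cells were next to each other in the order and did not pass the test (log2 difference 0.29, SE 0.27, adjusted p = 0.687). These are bulk samples, so fewer cells of a type and less RNA per cell cannot be told apart.

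The second Vcan probe, 1806 bases further along the gene in the direction of transcription, gave the same calls in each comparison. It read −1.56, −0.99, −6.34 and −2.25 in TRKA-TGF cells, the third of these not well above background, against 3.96, 3.59, 3.24 and 3.48 in TRKA cells. TRKA samples were again the highest and TRKA-TGF samples the lowest. Its log2 difference for TRKA-TGF against TRKA was −6.35 (SE 0.88). The TRKA differences were smaller when arrays were quantile normalized, a scaling that moved the median of all genes by −0.33 for TRKA-TGF against TRKA, 0.25 for TRKA against p75 and 0.32 for TRKA against CD90. Relative to that median Vcan differed by −4.50, 2.29 and 1.90 in those comparisons, against −5.57, 3.44 and 3.23 with the 75th percentile, and it stayed called.

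Summed marker levels of other cell types also differed between TRKA-TGF and TRKA cells. The summed level of 8 fibroblast markers (Thy1, Col1a1, Col1a2, Col3a1, Pdgfra, Dcn, Lum and Postn) was 2.11 to 3.88 in TRKA-TGF and 6.73 to 7.25 in TRKA cells, with 8.85 to 9.04 in CD90 and 7.61 to 7.73 in p75 cells. On the TRKA arrays 3 to 6 of the 8 markers were well above background. Col1a1, a chain of type I collagen, averaged 2.62 in TRKA-TGF and 6.89 in TRKA cells, each within the range of that population's sum. The fibroblast proteoglycan genes Dcn and Lum were not well above background in TRKA cells. The limma fit called 1 of the 8 markers higher and 2 lower in TRKA-TGF than in TRKA cells. Postn averaged −0.57 in TRKA-TGF and −5.74 in TRKA cells. The macrophage sum was also lower in TRKA-TGF than in TRKA cells, as given above, but 0 of the 8 macrophage markers were called there. The part of these shifts in the Vcan difference was not tested.

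Ncan encodes neurocan, a lectican made in the nervous system. The p75 samples had 1.81, 1.21, 1.98 and 1.24. All 12 samples of the other populations were not well above background, with levels between −8.19 and −6.96. The processed signal was 2999 to 4898 in p75 cells and no higher than 6.91 in any other sample.

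Because the other populations had no signal well above background, their Ncan differences are bounds. Ncan was at least 161-fold lower in TRKA-TGF than in p75 cells (adjusted p = 2.32e-11) and at least 130-fold lower in TRKA than in p75 cells (adjusted p = 3.18e-11). It was at least 210-fold lower in CD90 than in p75 cells (adjusted p = 3.7e-11). Ncan passed the detection filter through its 4 p75 arrays alone, so these calls are not independent of that filter. For a bound, each array of the dim group was given its lowest signal that was well above background, or the probe's signal where that was higher, and the bright group's mean was divided by their average on the log2 scale. The p75 population also held glial markers. Of 6 of them, Sox10, Ngfr, S100b, Erbb3, Fabp7 and L1cam, all were well above background on each p75 array. The number was 4 to 6 on the TRKA-TGF arrays, 1 to 3 on the TRKA arrays and 3 on each CD90 array. The summed level of these markers was 0.85 to 1.26 in TRKA-TGF, −2.44 to −0.25 in TRKA and −0.57 to 0.43 in CD90 cells, against 6.15 to 6.25 in p75 cells. Their part in the Ncan difference was not tested.

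Bcan encodes brevican, a lectican of the mature central nervous system. One of its probes was not well above background on any of the 16 arrays. The other was well above background on 1 TRKA array, at −4.89, and on 2 p75 arrays, at −3.62 and −3.32. Bcan therefore had no tested difference.

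Acan encodes aggrecan, the lectican of cartilage and of perineuronal nets. The CD90 samples had 1.32, 1.51, 1.33 and 1.88. No TRKA-TGF or TRKA array was well above background, and of the p75 arrays only replicate 3 was, at −4.62. All CD90 samples were above all others by over 5 log2 units. Acan passed the detection filter through the CD90 arrays and that p75 array, so its calls are not independent of the filter.

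Acan was at least 155-fold lower in TRKA-TGF than in CD90 cells (adjusted p = 1.85e-07) and at least 125-fold lower in TRKA than in CD90 cells (adjusted p = 1.32e-07). Between CD90 and p75 cells the log2 difference was 8.57 (SE 0.62, adjusted p = 7.64e-07), where the p75 mean includes 3 arrays not well above background. It was 8.15 to 9.38 over the fits that left out 1 array. With normexp background correction, which lifts dim signals, it was 5.66 and stayed called.

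Cspg4 encodes NG2, a membrane-spanning chondroitin sulfate proteoglycan of pericytes, smooth muscle and glial progenitors. Its level was −6.03, −6.24, −5.84 and −6.01 in TRKA-TGF samples, of which only replicate 3 was well above background. The TRKA samples had −1.77, −5.06, −4.77 and −5.23. The CD90 samples had 1.45, 0.75, 1.09 and 1.25, and the p75 samples −1.62, −0.62, −0.92 and −0.39. The 4 populations did not overlap, in the order CD90, p75, TRKA, TRKA-TGF, but TRKA replicate 1 lay close to the lowest p75 sample and far from the other TRKA samples. Both TRKA populations were dim. The processed signal was 12.6 to 17.7 in TRKA-TGF cells and 21.8 to 24.6 in TRKA replicates 2 to 4. The lowest signal well above background on those TRKA arrays was 15.4 to 18.8.

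Cspg4 fell by 7.16 on the log2 scale in TRKA-TGF relative to CD90 cells (SE 0.61, adjusted p = 2.04e-06) and by 5.14 relative to p75 cells (adjusted p = 3.8e-05). It was 40.6-fold lower in TRKA than in CD90 cells (adjusted p = 1.33e-05) and 9.99-fold lower in TRKA than in p75 cells (adjusted p = 0.000699). With normexp correction, which lifts dim signals, the differences were −4.85, −2.94, −3.87 and −1.95 in the same order and stayed called. Without TRKA replicate 1 the TRKA differences were larger, at −6.16 against CD90 and −4.13 against p75. The difference of 2.02 between CD90 and p75 cells missed the threshold (adjusted p = 0.0634), although no sample overlapped, and it was called under several alternatives, among them the fit of these 2 groups alone (adjusted p = 0.00835) and that without TRKA replicate 1 (adjusted p = 0.000451). TRKA-TGF against TRKA gave −1.82 (SE 0.61, adjusted p = 0.0402). That last call was lost in 14 of 27 alternatives, among them normexp, the fit of these 2 groups alone (adjusted p = 0.15) and each fit without a TRKA-TGF array, and the difference was −1.01 without TRKA replicate 1.

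The CD90 cells, where Cspg4 was highest, also had the highest sum of smooth muscle and pericyte markers. Over the 7 measured of 8 (Acta2, Cnn1, Mylk, Lmod1, Rgs5, Pdgfrb and Des; Kcnj8 was not tested) it was 4.89 to 5.10 in CD90 cells, against −2.19 to −1.86 in TRKA-TGF, −1.55 to 2.22 in TRKA and 1.08 to 1.62 in p75 cells. The oligodendrocyte progenitor list, Olig1, Olig2, Pdgfra, Sox10 and Gpr17, summed to −2.10 to −0.20 in TRKA-TGF, −1.65 to 0.78 in TRKA, 3.25 to 3.49 in CD90 and 4.10 to 4.66 in p75 cells. On each CD90 array 2 or 3 of its 5 genes were well above background. Sox10, also among the glial markers above, averaged 4.21 in p75 cells, within the range of that sum. In CD90 cells it averaged −5.12, with 1 of 4 arrays well above background, so the CD90 sum came from other genes. The part of these lists in the Cspg4 differences was not tested.

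Has2 encodes the synthase that makes long hyaluronan chains. Its level was −2.68, −2.49, −2.25 and −2.67 in TRKA-TGF samples and −3.64, −3.33, −2.59 and −3.51 in TRKA samples. The CD90 samples had 2.14, 2.46, 1.99 and 2.23, and the p75 samples −2.02, −2.45, −1.33 and −3.29. All CD90 samples were above all others, while the other 3 populations overlapped.

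Has2 was 26.5-fold lower in TRKA-TGF than in CD90 cells (log2 difference −4.73, SE 0.37, adjusted p = 9.16e-07), within slide 2. It was 44.4-fold lower in TRKA than in CD90 cells (log2 difference −5.47, adjusted p = 1.21e-07) and 22.3-fold higher in CD90 than in p75 cells (log2 difference 4.48, adjusted p = 2.75e-06). TRKA against p75 gave −0.99 (SE 0.37, adjusted p = 0.0485). That call held in 8 of 27 alternatives, and of the fits without 1 array only those without p75 replicate 4 and without TRKA replicate 3 kept it. With quantile normalization the difference was 0.40 and not called (adjusted p = 0.386). TRKA-TGF and TRKA cells differed by 0.75 (adjusted p = 0.155), or by −0.71 with quantile normalization, and TRKA-TGF and p75 cells by −0.25 (adjusted p = 0.77).

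Has1, another hyaluronan synthase, gave no call. Its brighter probe averaged −3.52 ± 0.71 in TRKA-TGF, −4.87 ± 2.08 in TRKA, −4.24 ± 1.29 in CD90 and −4.32 ± 1.59 in p75 cells (SD, n = 4 each), and it was well above background on 13 of 16 arrays. The populations overlapped in every comparison, with adjusted p between 0.358 and 0.986. The dimmer probe was well above background on 4 arrays, 2 of CD90 and 2 of p75 cells. Without TRKA replicate 1, which read −1.77 where the other TRKA samples read −5.72, −5.83 and −6.18, the brighter probe differed by 2.39 between TRKA-TGF and TRKA cells (adjusted p = 0.048).

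Hapln1 encodes the link protein that ties lecticans to hyaluronan. The probe that was tested read −0.99, −2.63, −1.70 and −2.73 in TRKA-TGF samples and −1.72, −1.71, −3.06 and −3.27 in TRKA samples. It read 1.15, 0.69, −0.99 and 0.47 in CD90 samples and 0.65, −2.19, −3.18 and −1.72 in p75 samples. CD90 samples were above all TRKA samples and just above all TRKA-TGF samples, with −0.99 in the closest sample of each, and they overlapped with p75. TRKA against CD90 was called (log2 difference −2.77, SE 0.75, adjusted p = 0.0109), though not with quantile normalization (adjusted p = 0.0651). TRKA-TGF against CD90 gave −2.34 (adjusted p = 0.0525) and was called when only those groups were fitted (adjusted p = 0.0265). CD90 against p75 gave 1.94 (adjusted p = 0.169), or 2.69 and a call without p75 replicate 1 (adjusted p = 0.0216).

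The other Hapln1 probes were well above background on 1 and 2 of the 16 arrays and were not tested. The tested probe starts 3943 bases after the first of them, and the last starts 11948 bases after the first. The 2 arrays where that last probe was well above background were both of CD90 cells, at −4.89 and −5.36.

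Cd44 encodes the main membrane receptor for hyaluronan, which many cell types carry. The probe with the highest mean read 0.10, −0.89, −1.46 and −0.46 in TRKA-TGF samples and −0.82, −0.37, −1.91 and −0.42 in TRKA samples. It read −2.36, −1.59, −2.19 and −2.54 in CD90 samples and 0.46, 0.20, 0.00 and 0.17 in p75 samples. CD90 samples were the lowest, apart from 1 TRKA sample within their range. By this probe Cd44 was 5.22-fold lower in CD90 than in p75 cells (log2 difference −2.38, SE 0.39, adjusted p = 0.00137).

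Cd44 was 2.82-fold higher in TRKA-TGF than in CD90 cells (adjusted p = 0.019) and 2.45-fold higher in TRKA than in CD90 cells (adjusted p = 0.0201). Leaving out CD90 replicate 1 or 4, or TRKA-TGF replicate 1 or 4, ended the first of these calls (adjusted p up to 0.0644), and leaving out CD90 replicate 4 or TRKA replicate 2 or 4 ended the second (adjusted p up to 0.0576). The second call was also lost in the fit of those 2 groups alone (adjusted p = 0.072). TRKA-TGF and TRKA cells differed by 0.20 (SE 0.39, adjusted p = 0.749). The difference of −1.09 between TRKA and p75 cells (adjusted p = 0.0449) was called in 11 of 27 alternatives. Averaging the 4 Cd44 probes in place of using 1 changed several calls. CD90 against p75 was then −1.45 (adjusted p = 0.201), TRKA against CD90 0.05 (adjusted p = 0.96) and TRKA against p75 −1.40 (adjusted p = 0.0848), none of them called. TRKA-TGF against TRKA was then 1.85 and called (adjusted p = 0.0348).

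The 4 Cd44 probes lie over 32393 bases of the gene and did not move together. Probe 4 is the one described above. Probe 2, 2940 bases after probe 1, was well above background on every array and had no call in any comparison. Probe 1 was well above background on 7 of 16 arrays. Correlation between pairs of the 4 probes over the 16 arrays ranged from −0.36 to 0.50, whereas the pair of Vcan probes had r = 0.91.

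Probe 3 of Cd44, 13753 bases after probe 1, set TRKA-TGF and TRKA cells apart. It read −1.55, −1.42, −0.42 and −2.19 in TRKA-TGF samples, all well above background, and −7.77, −7.62, −7.46 and −7.64 in TRKA samples, none well above background. The p75 samples read −4.97, −4.46, −1.19 and −1.64, all well above background. The CD90 samples read −6.41, −4.06, 0.11 and −7.52, with 2 of 4 well above background. TRKA samples were thus all below the samples of TRKA-TGF and p75 cells, and CD90 samples spanned nearly the whole range.

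In the fit over all 23695 tested probes, this probe was at least 16.7-fold higher in TRKA-TGF than in TRKA cells (adjusted p = 0.00334) and at least 5.26-fold lower in TRKA than in p75 cells (adjusted p = 0.0158). In those fits 26.4% and 36% of all probes were called. The other 3 Cd44 probes were not called between TRKA-TGF and TRKA cells, and whether the probes' differences differ from each other was not tested. TRKA arrays had the fewest probes well above background, and its part in this difference was not tested.

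**Figure D2:**
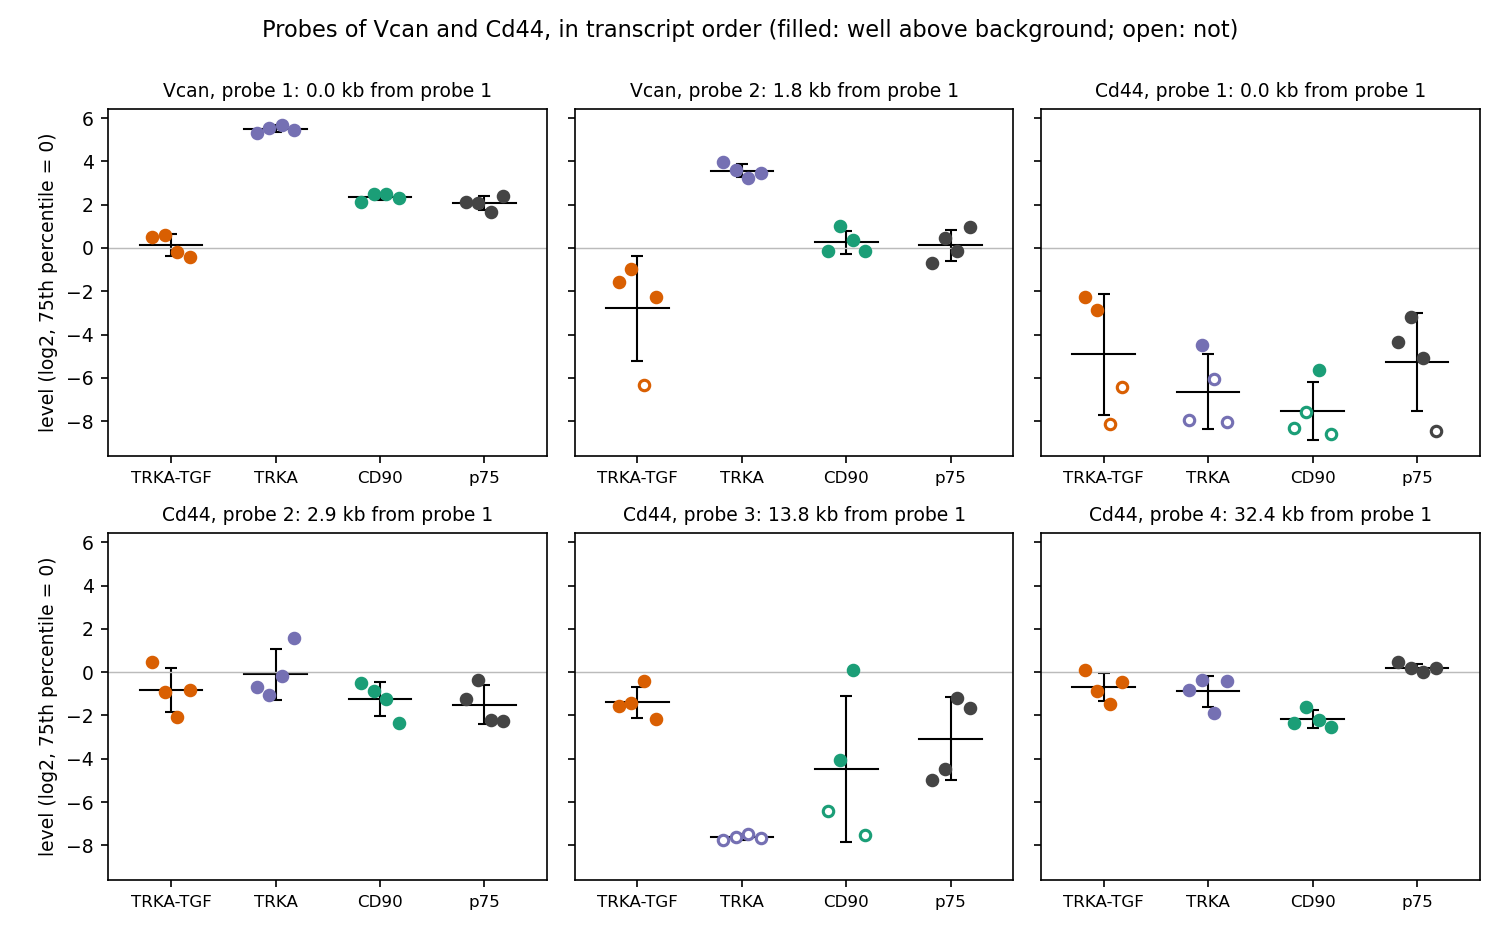
Each panel plots one probe of Vcan or Cd44 on the 16 arrays, as level in log2 units relative to the array's 75th percentile, by population, with the distance from the gene's first probe in the panel title. Filled points are well above background, open points are not, and lines give mean ± SD over 4 arrays. Both Vcan probes are highest in TRKA cells, while Cd44 probe 3 is open on all 4 TRKA arrays and filled on all 4 TRKA-TGF arrays, which probes 2 and 4 do not show.

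Counted by comparison, the members called were few between TRKA-TGF and TRKA cells and most numerous between TRKA and CD90 cells. TRKA-TGF against TRKA had 2 of 8 tested members called, both lower, where 26.4% of all tested genes were called (13.5% higher and 12.9% lower). TRKA against p75 had 5 of 8, 1 higher and 4 lower, where 35.7% of all genes were called (18.8% higher and 16.9% lower). TRKA-TGF against CD90 had 5 of 8, 1 higher and 4 lower, where 14.9% of all genes were called (7.72% higher and 7.19% lower).

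CD90 against p75 had 4 of 8 called, 2 higher and 2 lower, where 7.25% of all genes were called (3.68% higher and 3.57% lower). TRKA against CD90 had 6 of 8, 2 higher and 4 lower, where 34.9% of all genes were called (18.3% higher and 16.6% lower). TRKA-TGF against p75 had 3 of 8, all lower, where 15.1% of all genes were called (7.97% higher and 7.15% lower). The share between TRKA-TGF and TRKA cells was thus near that of all genes. Of the 25 calls in all, 18 held under every alternative tried, and these were all calls of Vcan, Ncan and Acan, 4 of the 5 of Cspg4 and 3 of the 4 of Has2. Ncan passed the detection filter only through p75 arrays and Acan mostly through CD90 arrays, and the calls of both are counted here.

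The members' median log2 difference was −0.03 for TRKA-TGF against TRKA, where that of all genes was 0.19. It was −0.91 for TRKA against p75 (all genes −0.01), −2.29 for TRKA-TGF against CD90 (all genes 0.15) and 1.11 for CD90 against p75 (all genes 0.05). It was −1.70 for TRKA against CD90 (all genes −0.09) and −0.87 for TRKA-TGF against p75 (all genes 0.14). The 6 comparisons share samples and are not independent of each other.

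**Figure D3:**
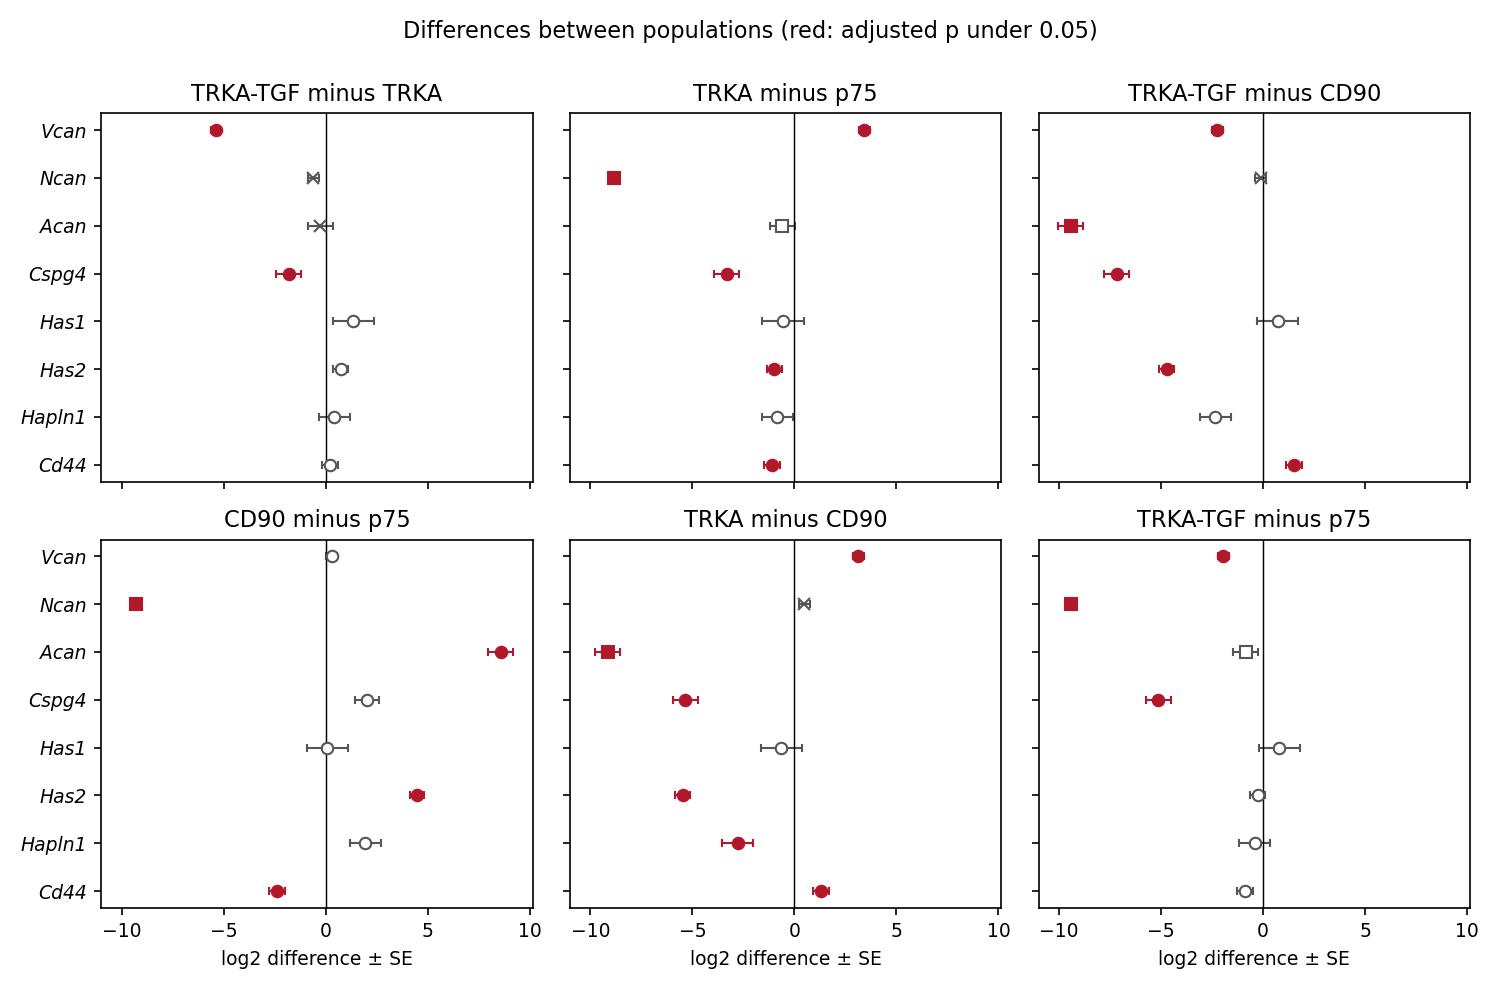
Each panel plots, for one comparison, the log2 difference of the 8 tested genes with its SE from the limma fit. Red marks an adjusted p under 0.05. Circles are differences with signal well above background in both populations on at least 1 array. Squares have no such array in one of them, and crosses have none in either. The red squares are bounded in the text, and the uncalled squares of Acan against p75 have no bound. Vcan lies at −5.37 for TRKA-TGF minus TRKA, Ncan is a square near −9 wherever p75 is subtracted, and Has2 and Acan are positive for CD90 minus p75.

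Over the 16 arrays Acan, Has2, Cspg4 and Hapln1 correlated with each other, with r between 0.61 for Cspg4 with Hapln1 and 0.97 for Acan with Has2. Ncan and Cd44 had r = 0.66, and Cd44 had r = −0.74 with Acan and −0.72 with Has2. The r of Vcan with the other members ranged from −0.31 with Has1 to 0.08 with Cspg4. The arrays of a population share a slide, and such values mainly describe the population means. Whether these arrays also share a sort or a culture is not stated. Among 14107 genes the patterns most like Vcan were those of Egr1, an immediate early transcription factor (r = 0.98), Zdhhc16 (r = 0.98) and Ier3 (r = 0.98). Egr1 averaged −0.91 in TRKA-TGF, 4.18 in TRKA, 1.75 in CD90 and 1.20 in p75 cells.

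Ncan was most like Ajap1, Scn7a and Lrrc4c (r = 0.99 to 1.00), of which Scn7a, a sodium channel gene of glia, averaged 5.06 in p75 cells. Acan was most like Ccn4, Col8a2 and Fam221a (r = 0.99 to 1.00), and Has2 most like Robo1, Ccn4 and Fam221a (r = 0.97 to 0.98). Ccn4, a secreted matricellular protein gene, averaged 1.63 in CD90 cells and lay between −7.55 and −6.94 in the others. Cspg4 was most like Matn4, Amotl2 and Pygo1 (r = 0.95 to 0.98), and Hapln1 most like Col6a2, Nexn and Lurap1l (r = 0.85 to 0.86). Has1 was most like Itpkb, Mad1l1 and Pusl1 (r = 0.86 to 0.88) and Cd44 most like Ndufb4, Abcb4 and Chrm4 (r = 0.89 to 0.92).

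The other genes of the pathway were taken as 10 lists of 74 genes, of which 63 were tested. TRKA-TGF against TRKA had 11 of the 63 called higher and 4 lower, and TRKA against p75 had 6 higher and 21 lower. TRKA-TGF against CD90 had 5 higher and 17 lower, and CD90 against p75 had 5 higher and 5 lower. TRKA against CD90 had 7 higher and 19 lower, and TRKA-TGF against p75 had 6 higher and 15 lower. In percent the calls were 23.8, 42.9, 34.9, 15.9, 41.3 and 33.3 in that order, beside the shares of all genes given above. Under quantile normalization 11 of the 15 calls were kept in TRKA-TGF against TRKA, 22 of 27 in TRKA against p75, where 1 direction turned, and 21 of 26 in TRKA against CD90.

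Of 4 tested proteases that cut lecticans, 3 were called lower in TRKA than in p75 cells and higher in TRKA-TGF than in TRKA cells. Adamts1, Adamts4 and Adamts5 cleave versican and aggrecan. On the 4 TRKA arrays none was well above background. In TRKA-TGF cells Adamts4 was well above background on 4 arrays and the other 2 on 3 each. Adamts4 averaged −1.15 ± 1.22 in TRKA-TGF, −6.82 ± 0.58 in TRKA, −3.58 ± 2.85 in CD90 and 2.48 ± 0.46 in p75 cells (SD, n = 4 each).

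Between TRKA-TGF and TRKA cells these 3 of the 4 tested proteases were called higher. Adamts4 was at least 19.8-fold higher (adjusted p = 0.00144), Adamts5 at least 2.73-fold (adjusted p = 0.0472) and Adamts1 at least 1.36-fold (adjusted p = 0.00264). The Adamts5 call was lost with quantile normalization (adjusted p = 0.246), and the calls of Adamts1 and Adamts5 were lost with normexp (adjusted p = 0.304 and 0.175). In TRKA cells relative to p75 cells they were at least 246-fold, 201-fold and 136-fold lower for Adamts4, Adamts5 and Adamts1. Between CD90 and p75 cells only Adamts4 was called, at −6.06 (SE 1.07, adjusted p = 0.00236).

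Of 7 tested partners of lecticans, 3 were called lower in TRKA cells, both against p75 and against CD90, and 2 were called lower in TRKA-TGF than in CD90 cells. Between TRKA-TGF and TRKA cells the limma fit called 0 of the 7, and 0 had an unadjusted p under 0.05. Fbln2, encoding fibulin-2, averaged −4.05 ± 0.32 in TRKA-TGF, −3.55 ± 1.59 in TRKA, 1.88 ± 0.48 in CD90 and 4.11 ± 0.10 in p75 cells (SD, n = 4 each). Fbn1, encoding fibrillin-1, was at least 228-fold lower in TRKA than in CD90 cells (adjusted p = 7.48e-07). Tnc, encoding tenascin-C, averaged 5.14 in CD90 and 5.45 in p75 cells, and in TRKA cells it was well above background on 2 of 4 arrays.

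Other proteoglycans also differed between CD90 and p75 cells. Epyc, encoding the small proteoglycan epiphycan of cartilage, averaged 2.25 ± 0.25 in CD90 and −6.85 ± 1.17 in p75 cells (log2 difference 9.10, SE 0.58, adjusted p = 1.76e-07). Only 1 of 4 p75 arrays was well above background for it, and with normexp the difference was 6.34. Ptprz1, which encodes a receptor phosphatase and its secreted form phosphacan, averaged −5.21 ± 3.73 in CD90 and 1.29 ± 0.55 in p75 cells (log2 difference −6.50, adjusted p = 0.00958). Epyc and Ptprz1 passed the detection filter only with the arrays of their higher population, so these calls are not independent of that filter. Dcn, encoding decorin, was at least 108-fold lower in TRKA than in CD90 cells (adjusted p = 0.000303). Bgn, encoding biglycan, was lower in TRKA than in CD90 cells as well (log2 difference −6.31, adjusted p = 2.47e-08).

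Srgn encodes serglycin, the granule proteoglycan of blood cells, and like Vcan it had its highest mean in TRKA cells. It averaged −1.06 ± 1.26 in TRKA-TGF, 3.96 ± 0.13 in TRKA, 1.05 ± 0.39 in CD90 and −0.36 ± 1.08 in p75 cells (SD, n = 4 each). The log2 difference of TRKA-TGF against TRKA was −5.02 (SE 0.59, adjusted p = 3.96e-05). Bgn moved the other way there, by 1.99 (adjusted p = 0.00108). Both were the only calls among the 7 genes of this list in that comparison.

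Among enzymes that build the chains, Csgalnact2, which adds the first N-acetylgalactosamine, was not well above background on any TRKA array. It averaged −0.67 ± 1.33 in TRKA-TGF cells and was at least 27.6-fold higher there than in TRKA cells (adjusted p = 2.28e-05). Xylt2, which starts the linkage to the core protein, was higher in TRKA-TGF than in TRKA cells by 3.94 (adjusted p = 0.00899). Chsy1, a chondroitin polymerase, was lower (log2 difference −2.35, adjusted p = 0.0283). The remaining 6 of 9 tested genes were not called in that comparison.

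Chsy1 and Csgalnact1 were the chain-building genes called in CD90 against p75, at 2.95 and 2.91 (adjusted p = 0.0231 and 0.0443). In TRKA-TGF against p75 the limma fit called 0 of the 9 genes of this list, and 1 had an unadjusted p under 0.05. Of 10 tested genes that modify the chain, 2 were higher and 2 lower there. Chst11, a chondroitin 4-O-sulfotransferase, was at least 39.1-fold lower (adjusted p = 0.000373), and Ust, the uronyl 2-O-sulfotransferase, was higher by 5.23 (adjusted p = 0.0134). Dsel, an epimerase that turns chondroitin into dermatan sulfate, was lower (log2 difference −2.93, adjusted p = 0.00121).

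The related epimerase gene Dse was higher in CD90 than in p75 cells, by 1.95 (adjusted p = 0.000383). In TRKA cells Dsel was not well above background on any array, and it was at least 2.13-fold higher in TRKA-TGF cells (adjusted p = 0.000916), a call that was lost with normexp (adjusted p = 0.401). Chst13, another 4-O-sulfotransferase gene, was lower in TRKA-TGF than in TRKA cells (log2 difference −1.99, SE 0.43, adjusted p = 0.00351).

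Of 5 tested receptors for chondroitin sulfate chains, 3 were called lower in TRKA than in p75 cells and 2 lower in TRKA than in CD90 cells. Ptprf, a receptor phosphatase, was not well above background in TRKA cells and was at least 25.2-fold lower there than in p75 cells (adjusted p = 2.01e-06). Ptprs, the related phosphatase known to bind these chains on neurons, averaged −0.18 ± 1.91 in TRKA and 3.61 ± 0.06 in p75 cells (log2 difference −3.79, adjusted p = 0.000534). Rtn4rl1, a Nogo receptor relative, was the single call of 5 between TRKA-TGF and TRKA cells, at 2.62 (adjusted p = 0.0125). Between CD90 and p75 cells the limma fit called 0 of the 5, and 2 had an unadjusted p under 0.05.

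On the hyaluronan side, Ugdh makes the UDP-glucuronic acid that both hyaluronan and chondroitin need. It averaged −0.62 ± 0.55 in TRKA-TGF, −0.55 ± 1.14 in TRKA, 1.30 ± 0.65 in CD90 and 2.82 ± 0.09 in p75 cells (SD, n = 4 each). It was lower in TRKA than in p75 cells (log2 difference −3.37, SE 0.50, adjusted p = 0.000136) and in TRKA-TGF than in CD90 cells (log2 difference −1.92, adjusted p = 0.0185). The remaining 2 of the 3 tested genes of hyaluronan synthesis were not called by the limma fit in any of the 6 comparisons.

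Cemip, whose product takes part in breaking down hyaluronan, shared the CD90 pattern of Has2 and Acan. It averaged 2.44 ± 0.74 in CD90 cells and was not well above background on any TRKA-TGF or TRKA array. Cemip passed the detection filter through the CD90 arrays and 1 p75 array, so its calls are not independent of the filter. It was at least 295-fold lower in TRKA-TGF than in CD90 cells (adjusted p = 5.6e-06) and at least 238-fold lower in TRKA than in CD90 cells (adjusted p = 1.9e-06). Between CD90 and p75 cells the log2 difference was 8.58 (SE 0.85, adjusted p = 1.56e-05), with 1 of 4 p75 arrays well above background, and it was 6.10 with normexp. Cemip2, a related membrane protein gene, was lower in TRKA-TGF than in TRKA cells (log2 difference −1.18, adjusted p = 0.0324), but not called with quantile normalization (adjusted p = 0.316).

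Tnfaip6, whose product TSG-6 binds hyaluronan and modifies it, was lower in both TRKA populations. Its log2 difference was −6.40 for TRKA against p75 (SE 0.89, adjusted p = 7.83e-05) and −7.31 for TRKA-TGF against CD90 (adjusted p = 5.83e-05), with 1 of 4 arrays well above background in each TRKA population. Hmmr, a hyaluronan-binding protein gene of dividing cells, was not well above background in either TRKA population and was at least 7.26-fold lower in TRKA than in p75 cells (adjusted p = 0.000161). Layn, encoding the receptor layilin, was higher in TRKA-TGF than in TRKA cells by 5.87 (SE 1.77, adjusted p = 0.0255), with 1 of 4 TRKA arrays well above background, and it was not called with normexp (adjusted p = 0.0634). Cd44 by its main probe was not called there.

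Among 6 tested genes of lysosomal enzymes that degrade the chains, Gusb, encoding beta-glucuronidase, and Hexa, a hexosaminidase subunit gene, were called higher in TRKA-TGF than in CD90 cells (log2 differences 1.52 and 1.46, adjusted p = 0.0016 and 0.00149). They were likewise called higher in TRKA than in CD90 cells (log2 differences 1.69 and 1.37, adjusted p = 0.000288 and 0.00104). With quantile normalization Gusb and Hexa were not called in TRKA against CD90 (adjusted p = 0.0776 and 0.237). Between TRKA-TGF and TRKA cells the limma fit called 0 of the 6, and 0 had an unadjusted p under 0.05. Hexa averaged 4.39 in TRKA-TGF, 4.29 in TRKA, 2.92 in CD90 and 4.23 in p75 cells. The macrophage sum given above was higher in both TRKA populations than in CD90 and p75 cells. The part of the macrophage markers was not tested.

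**Figure D4:**
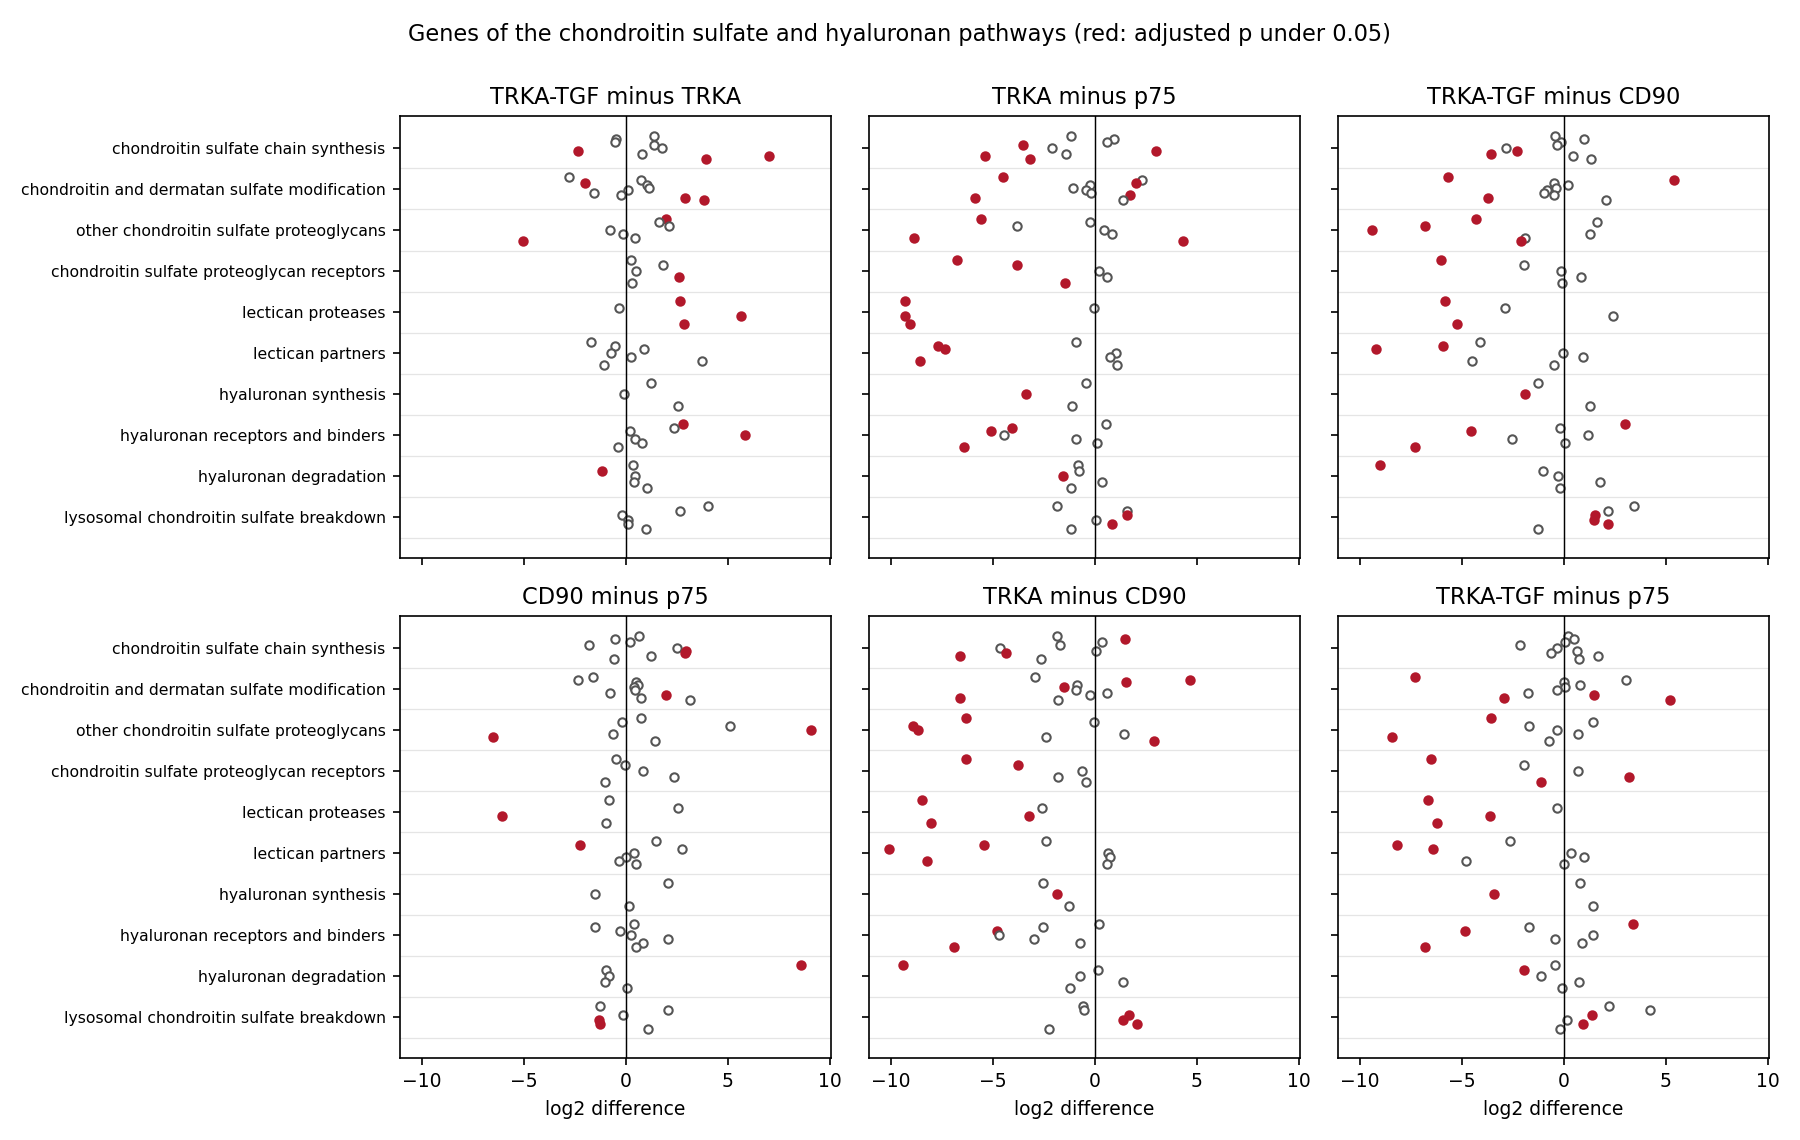
Each panel plots, for one comparison, the log2 difference of every tested gene in the 10 pathway lists, 1 point per gene and 1 row per list. Red points have an adjusted p under 0.05. Of the lectican proteases, 3 of 4 are red to the left of 0 for TRKA minus p75 and red to the right for TRKA-TGF minus TRKA. Their exact place is set by background signal, since none of the 3 was well above background in TRKA cells.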

How the data were processed

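Per the labels' protocols, mRNA was isolated on magnetic beads and amplified by PCR as cDNA. Spot intensities, linear and with background already subtracted, were read from the deposited scanner output, as named per the file headers. Those headers name Feature Extraction 10.7.3.1, whereas the submitters' processing notes name 10.5. A further deposited table holds the authors' log2 values, whose scale and centring are not stated. Its columns followed quantile-normalized, probe-centred log2 signals with r of at least 0.9997, and their medians ranged from −0.03 to 0.20. It served as an alternative.

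Outlier-flagged spots were left out, spots of a probe were averaged on the log2 scale, and each array's 75th percentile over probes was subtracted. Genes were named by accession or symbol, and each was represented by its tested probe with the highest mean. The limma package (3.58.1, in R 4.3.3, with version 1.17.8 of data.table) fitted a mean for each group, with eBayes and no trend, and Benjamini-Hochberg adjustment followed. These steps were tested on simulated data. Spots below background have only a bound, and 4 arrays per group limit the precision. Python 3.11.15 with pandas 2.3.3 and numpy 2.4.6 read the files.

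Besides 16 fits without 1 array, 11 alternatives were tried, and the closing section gives their effect. The text names all 9 members, per list and comparison at most the 3 called genes with the largest difference, and the 3 genes most correlated with each member. A few of these genes and 1 probe sequence are not reported here. Members and lists were chosen with earlier results of these data known. Equal replicate numbers went with no shared deviation: over 24 pairs of equally numbered samples, deviations from the group means correlated between −0.03 and 0.04. This cannot show whether such samples share an animal or a culture.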

Additional observations from a re-analysis of the deposited data

Results flagged for a closer look

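Among 32 sets of 4 samples, one for each tested member and population, 2 held a sample far from the rest by Dixon's ratio at its usual critical value, and chance flags about 1 in 20. Both were TRKA replicate 1. The Cspg4 level was −1.77 there, and the nearest TRKA sample had −4.77. The Has1 level was −1.77 there as well, and the nearest TRKA sample had −5.72. No other member stood apart in that sample.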

How the results depend on the processing

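Of 25 member calls, 18 held under all 27 alternatives (26 for Ncan and Acan) and 7 were lost under at least 1, and 7 uncalled differences were called under at least 1. Members called in TRKA-TGF against TRKA, 2 by the limma fit above, were 1 with normexp, a floor, 2 groups in the fit, or trend and robust moderation, 3 with quantile normalization, the authors' table or the mean of the kept probes, and 1 to 3 with 1 array left out. Members called in TRKA against p75, 5 above, were 3 with quantile normalization, the authors' table, 2 groups in the fit, or trend and robust moderation, and 3 to 4 with 1 array left out. Members called in CD90 against p75, 4 above, were 2 when detection was required on 8 arrays, a filter that left Ncan and Acan untested. Has2 in TRKA against p75 reversed to 0.40 with quantile normalization and to 0.39 with the authors' table. Apart from what these constructions show, the cause was not tested. With the replicate number as a block (replicate block), TRKA-TGF against TRKA had 1 member and 5114 genes called, and no total of called genes moved by over 1.5 times under any alternative. By direction, genes called higher went to 5828 with normexp in TRKA against p75 (3872 above) and to 1844 with 2 groups in the fit in TRKA-TGF against TRKA (2776 above), and genes called lower to 2259 with 2 groups in the fit in TRKA against CD90 (3420 above). Dropping the detection filter or keeping outlier spots left the count of members called as it was in each comparison. Higher genes made up 51.1% of calls in TRKA-TGF against TRKA, but 38.8% with normexp, 39.8% with quantile normalization and 39.9% with the authors' table. With normexp they were 66.9% in TRKA against p75, where they were 52.7% above, and 62.7% in TRKA against CD90, where they were 52.3% above. Signal over background limits Ncan, Acan and Bcan, whose dim groups have only bounds or no test. It also limits Cspg4 in TRKA-TGF against TRKA, where signals lay near background apart from TRKA replicate 1.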
